A study of Mus musculus with 12 samples.

Results

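The genes described here are Ggt1 and 9 other genes of glutathione conjugation, 10 of the 27179 genes measured: the conjugate-cleaving enzymes Ggt1, Dpep1 and Anpep and the glutathione S-transferases Gsta1, Gsta2, Gsta3, Gsta4, Gstm1, Gstp1 and Gstt1. They were chosen by name and by no rule on their measured values, though earlier results of these data were known. All 10 passed the filter on low values described below. Their RNA was read in whole kidneys of 12 mice in 4 groups of 3, wild-type or FAN1KO animals given either saline or cisplatin, a platinum drug that crosslinks DNA and injures kidney tubules. The labels give the genotypes as Wildtype and {Gamma}GT1-Cre;Fan1-/-, a Mixed strain background and an age of 8-12 weeks for every group. Cisplatin was injected at 2 mg/kg once a week for 5 weeks, and controls received saline. FAN1 is a nuclease of DNA crosslink repair. In the FAN1KO mice a Ggt1 promoter drives Cre, so that Fan1 is deleted in proximal tubule cells, while the whole kidney, with all its other cells, was sequenced. No label tells whether wild-type mice carried Cre.

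Glutathione S-transferases join the tripeptide glutathione to reactive compounds, which makes them soluble and ready for export. Gamma-glutamyl transferase, encoded by Ggt1, sits on the brush border of the proximal tubule and cuts the glutamyl residue from glutathione and its conjugates. Dipeptidase 1 (Dpep1) and aminopeptidase N (Anpep), on the same membrane, then release the cysteine conjugate, which N-acetyltransferases turn into a mercapturate for urine, or which beta-lyases can turn into a reactive thiol. Proximal tubule cells also use the cleavage enzymes to recover the amino acids of filtered glutathione.

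By the RefSeq annotation of GRCm38.p6, Gsta4 (chr9:78191966-78209349), Gsta1 (chr9:78230669-78242683) and Gsta2 (chr9:78331018-78347192) lie near each other on chromosome 9, and Gsta3 lies alone on chromosome 1 (chr1:21240565-21265575). Ggt1 (chr10:75561076-75586193) and Gstt1 (chr10:75783813-75798584) share chromosome 10. Promoter windows were matched for 9 of the members, and those of 3 alpha-class genes are shown, because Gsta1 and Gsta2 moved together across the libraries and Gsta3 moved less. Each window covers the 250 bases before the transcript start that the promoter table uses (GRCm38.p6, RefSeq). For Gsta2 and Gsta3 that start lies inside the annotated span of the gene, by 47 and 20 bases, and only the bases outside the span are printed: chr9:78230419-78230668 on the plus strand for Gsta1, chr9:78347193-78347395 on the minus strand for Gsta2 and chr1:21240335-21240564 on the plus strand for Gsta3. Capitals mark the longest run that Gsta1 and Gsta2 share, and in Gsta3 a match to an HNF1 site core followed by a match to the antioxidant response element core:
Gsta1: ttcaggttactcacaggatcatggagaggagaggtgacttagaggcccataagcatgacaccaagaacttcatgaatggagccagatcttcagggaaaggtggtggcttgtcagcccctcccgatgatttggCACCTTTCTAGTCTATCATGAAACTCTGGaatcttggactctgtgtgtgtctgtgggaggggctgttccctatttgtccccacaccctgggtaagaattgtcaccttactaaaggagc
Gsta2: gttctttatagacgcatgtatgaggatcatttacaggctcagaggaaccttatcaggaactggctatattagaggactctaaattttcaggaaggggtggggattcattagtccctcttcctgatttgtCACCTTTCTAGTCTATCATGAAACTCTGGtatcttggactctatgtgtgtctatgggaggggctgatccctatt
Gsta3: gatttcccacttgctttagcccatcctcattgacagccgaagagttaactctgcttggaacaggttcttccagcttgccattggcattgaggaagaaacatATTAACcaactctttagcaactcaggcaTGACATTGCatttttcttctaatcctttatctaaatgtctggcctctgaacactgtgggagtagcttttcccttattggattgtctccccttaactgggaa

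The shared run of Gsta1 and Gsta2 is 29 bases long and begins 118 bases before that transcript start in Gsta1 and 121 in Gsta2. Without gaps, 69 of 250 positions of the whole windows of the pair were identical. That count leaves the run itself out of line, as its distances differ, so it does not tell how alike the windows are. Each whole window was searched on both strands for 3 motifs: the antioxidant response element core TGACNNNGC, which NRF2 binds, the HNF1 site core GTTAAT and the HNF4 core CAAAGTCCA, both bound by kidney and liver factors. These were found in 10.2%, 6.43% and 0.384% of 32851 promoter windows of that length. The Gsta3 window held a TGACNNNGC match and a GTTAAT match that did not overlap each other, and 2 of the 4 Ggt1 windows held TGACNNNGC. No window of Dpep1, Anpep, Gsta1, Gsta2, Gstm1, Gstp1 or Gstt1 matched any of the motifs.

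Values are TPM, a transcript abundance scaled to the same total in every library and a level per transcript length that can be compared between genes. A single read in a transcript of 1 kilobase was worth 0.020 to 0.048 TPM, and the lowest member value of all, 22.8 TPM of Gsta1, would be 1139 reads at that length, so counting error was small for these genes. Fan1 itself was low and its groups overlapped, with 1.98 to 3.80 TPM in wild-type saline, 1.17 to 2.28 in FAN1KO saline, 2.33 to 3.57 in wild-type cisplatin and 1.55 to 3.51 in FAN1KO cisplatin kidneys. The labels give no sex, and both sexes were used in the study. The genes Uty, Kdm5d, Ddx3y and Eif2s3y of the Y chromosome summed to 65.1 to 92.2 TPM in 4 libraries, 1 of each group, and to no more than 0.311 in the 8 others. The 4 are the third wild-type library after saline, the first FAN1KO library after saline, the first wild-type library after cisplatin and the third FAN1KO library after cisplatin. Proximal tubule markers summed to 4303 to 6951 TPM over the libraries of the other groups and to 1668 to 3181 in FAN1KO cisplatin kidneys, and in whole tissue fewer cells of a type and less RNA per cell cannot be told apart. Identical stretches of 150 bases with other genes cover 73.7% of the Gsta1 transcript (Gm3776, Gsta2 and Gm10639), 26.8% of Gsta2 (Gm10639, Gsta1 and Gm3776) and 41.8% of Gstp1 (Gstp2 and Gstp-ps), so those values may share reads with copies, and the other 7 members have no such stretch. Annotated genes overlap Dpep1 (Gm20388), Anpep (Gm44974) and Gsta3 (Gm28836, on the opposite strand), and whether counting used strand is not given in the sources used here.

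**Figure D1:**
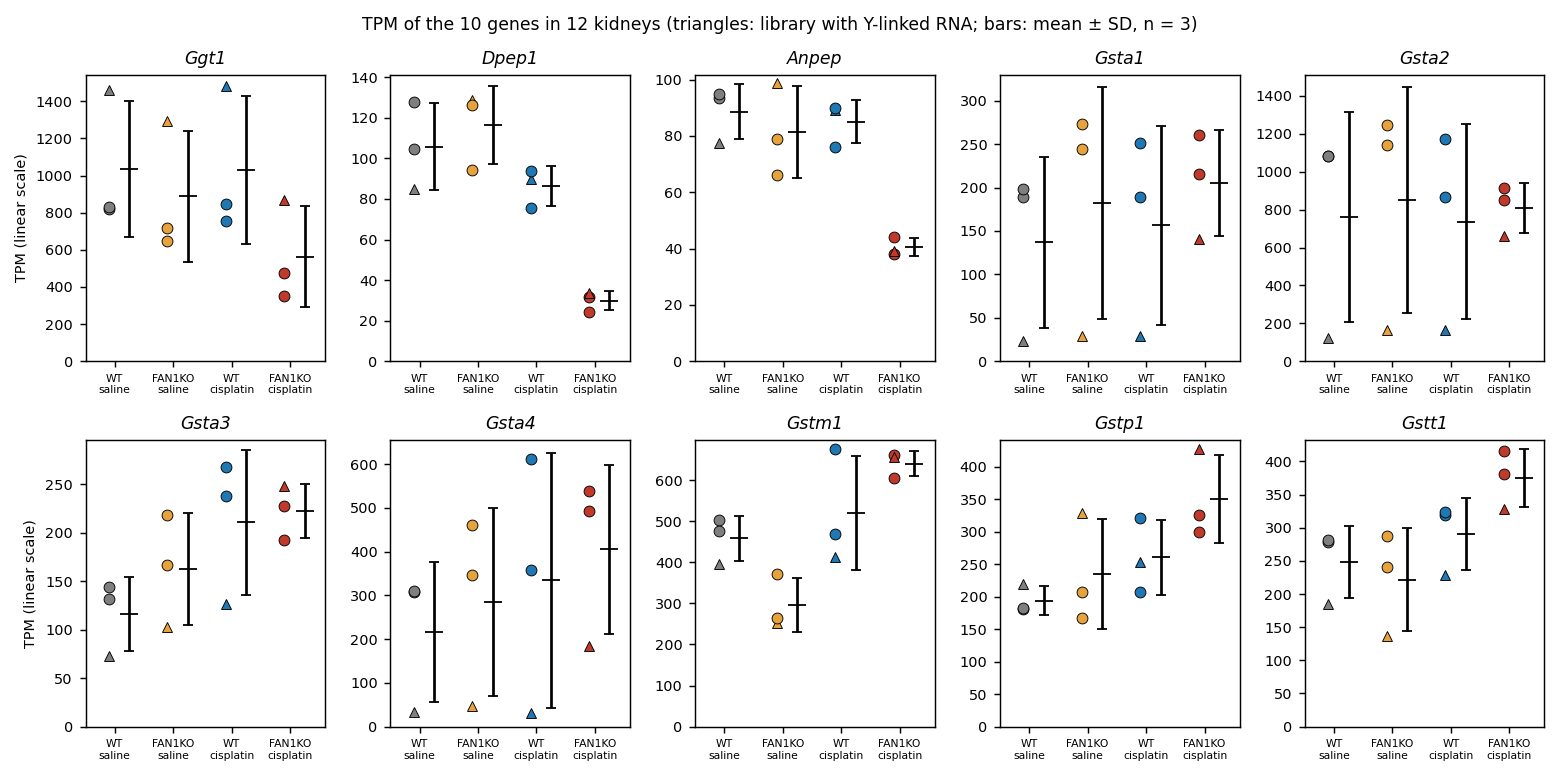
Each panel plots 1 gene in TPM on a linear axis that starts at 0, with the 12 libraries by group; points are libraries, triangles those with Y-linked RNA, and the bars beside them the mean ± SD of 3. Dpep1 and Anpep are lower in FAN1KO cisplatin kidneys than in any other kidney, while Gsta1, Gsta2 and Gsta4 part by Y-linked RNA within every group.

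The alpha-class transferases Gsta1, Gsta2 and Gsta4 spread widely within groups, and their levels went with Y-linked RNA. Gsta4, an enzyme that conjugates lipid aldehydes such as 4-hydroxynonenal, was at 308, 309.6 and 32.4 TPM in wild-type saline, 46.0, 462 and 346 in FAN1KO saline, 30.8, 613 and 358 in wild-type cisplatin and 494, 539 and 183 in FAN1KO cisplatin kidneys. The 4 low values belong to the 4 libraries with Y-linked RNA, which reached at most 183 TPM, against at least 308 in the other 8. Within a group, the mean of the 2 libraries without Y-linked RNA was 9.53, 8.78, 15.8 and 2.81 times the library with it, in saline kidneys of wild-type and then FAN1KO mice and in cisplatin kidneys of wild-type and then FAN1KO mice.

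Gsta2, a detoxifying transferase that also reduces peroxides, was the most abundant transferase where it was high. It stood at 1082, 1081 and 120.4 TPM in wild-type saline, 166, 1141 and 1246 in FAN1KO saline, 167, 1171 and 868 in wild-type cisplatin and 912, 851 and 659 in FAN1KO cisplatin kidneys. Gsta1, its close relative, was at 189, 199 and 22.8 TPM, at 29.1, 273 and 245, at 29.1, 252 and 189, and at 261, 216 and 140.3 in the same order. Both genes were again lowest in the 4 libraries with Y-linked RNA: the ranges were 120.4 to 659 TPM against 851 to 1246 for Gsta2, and 22.8 to 140.3 against 189 to 273 for Gsta1. The libraries without Y-linked RNA held 8.50, 8.89, 7.58 and 1.70 times the Gsta1 of the library with it in those 4 groups, and 8.98, 7.19, 6.10 and 1.34 times the Gsta2. In FAN1KO cisplatin kidneys the gap was the narrowest of the 4 groups for all 3 genes, but each group has only 1 library with Y-linked RNA, so this was not tested. Gsta2 stood at 3.50 to 5.76 times the TPM of Gsta1 in every library, whether both were high or low. The transcripts of the pair hold identical stretches, as given above, and the part of shared reads in this likeness was not tested.

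Ggt1 ran the other way. It was at 819, 833 and 1459 TPM in wild-type saline, 1295, 718 and 650.1 in FAN1KO saline, 1484, 755 and 847 in wild-type cisplatin and 349, 474 and 868 in FAN1KO cisplatin kidneys. Its 4 libraries with Y-linked RNA held 868 to 1484 TPM and the other 8 held 349 to 847, and within the groups the library with Y-linked RNA was at 1.77, 1.89, 1.85 and 2.11 times the mean of the others. Thus 4 of the 10 members did not overlap between the 4 libraries and the other 8, with 3 lower and 1 higher, where 9.68% of 14968 tested genes did not overlap, 8.51% lower and 1.17% higher. The remaining 6 overlapped. Among them, Gsta3 was at 0.526, 0.535 and 0.50 of the others' mean in 3 groups but 1.18 in FAN1KO cisplatin kidneys, Gstt1 was between 0.516 and 0.825 in all 4, and Dpep1, Anpep, Gstm1 and Gstp1 were above 1 in some groups and below it in others. The alpha class made up 23.6%, 32.4%, 28.3% and 46.6% of the summed TPM of the 7 transferases in the libraries with Y-linked RNA and 56.6% to 74.9% in the rest.

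**Figure D2:**
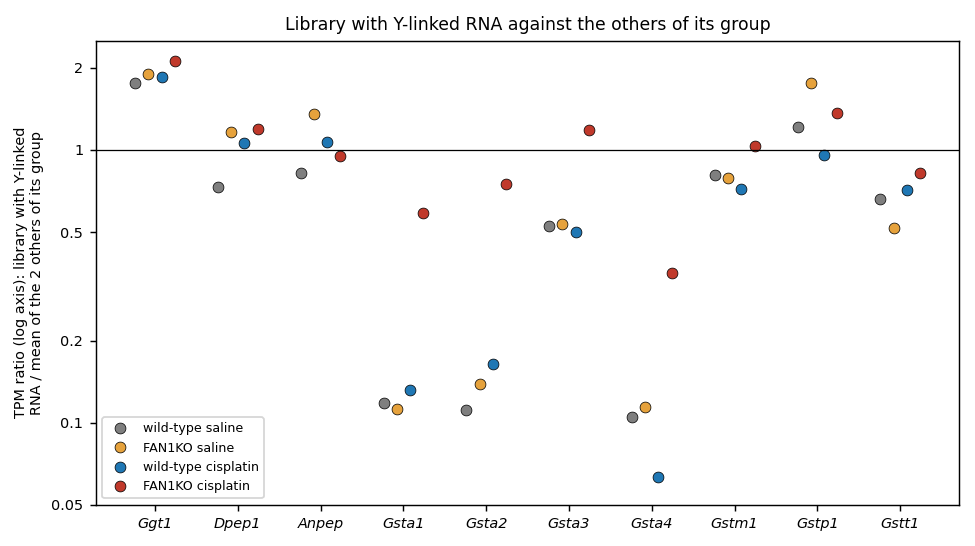
For each gene, points give the TPM of the library with Y-linked RNA divided by the mean of the 2 other libraries of its group, on a log axis, with colours for the 4 groups and a line at 1 where they are equal. Ggt1 lies at 1.77 to 2.11 in every group, and Gsta1, Gsta2 and Gsta4 lie below 1 in every group.

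The comparison of FAN1KO with wild-type kidneys under cisplatin gives the genotype difference after the drug. It includes any difference already present without the drug, which the saline comparison and the interaction term below address. Dpep1 and Anpep were called lower in FAN1KO kidneys, and no member was called higher. Dpep1, which splits the cysteinyl-glycine bond, was at 31.6, 24.4 and 33.6 TPM in FAN1KO kidneys and at 89.8, 93.8 and 75.3 in wild-type kidneys, 29.9 ± 4.83 against 86.3 ± 9.72 (SD, n = 3), or 2.89-fold lower. Its highest FAN1KO value was below the lowest of the other 9 kidneys, which held 75.3 to 129 TPM. The log2 fold change was −1.51 (SE 0.18, adjusted p = 0.000665, limma with Benjamini-Hochberg adjustment over 14972 genes tested). Anpep, an aminopeptidase of the brush border, was at 38.1, 44.2 and 39.2 TPM against 89.1, 76.2 and 90.1, 40.5 ± 3.25 against 85.1 ± 7.75 (SD, n = 3). These groups did not overlap either, and Anpep was 2.10-fold lower, with a log2 fold change of −1.05 (SE 0.15, limma adjusted p = 0.00136). Of the 10 members, 2 were lower and 0 higher, where 4.37% of all genes tested were called lower and 19.6% higher (23.9% in either direction).

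Most genes shifted upward in this comparison, with a median log2 fold change of 0.24 over all genes tested, which scaling by median-ratio size factors moved to −0.01. With that scaling 7.71% of genes were called lower and 9.28% higher, and Dpep1 and Anpep were at −1.79 and −1.33 (limma adjusted p = 0.000952 and 0.00341). For both genes the exact two-sided permutation test of 3 kidneys against 3 gave p = 0.1, the smallest it allows, so that this design cannot reach the threshold of 0.05 for a single gene. Ggt1 was 564 ± 271 TPM in FAN1KO and 1029 ± 397 in wild-type cisplatin kidneys (SD, n = 3), and its groups overlapped: the FAN1KO library with Y-linked RNA, at 868 TPM, lay above the wild-type libraries without it, at 755 and 847. Its log2 fold change of −0.91 (SE 0.40) did not pass the test (limma adjusted p = 0.123). With Y-linked RNA as a covariate it was −0.93 with an SE of 0.12 (limma adjusted p = 0.000222), and among the 8 libraries without Y-linked RNA alone it was −0.97 (limma adjusted p = 0.0042). That covariate called 48.9% of all genes tested in either direction and the 8 libraries called 36.7%. Without FAN1KO cisplatin replicate 3, the library with Y-linked RNA, Ggt1 was −1.27 (limma adjusted p = 0.043).

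The transferases did not pass the test in this comparison. Gstt1, the theta-class member, was at 381, 415 and 328 TPM in FAN1KO kidneys and at 229, 319.7 and 324 in wild-type kidneys. Its groups did not overlap, at 375 ± 43.8 against 291 ± 53.9 (SD, n = 3), but by a margin of a few TPM, with a log2 fold change of 0.38 (SE 0.27, limma adjusted p = 0.33) that was 0.09 after median-ratio scaling. Its adjusted p with the Y-linked covariate was 0.0294 in limma as deposited and 0.582 with scaling and covariate together. Together with Dpep1 and Anpep, 3 of 10 members had groups that did not overlap, where 44.3% of all genes tested did. Gstm1, the mu-class enzyme, and Gstp1, the pi-class enzyme, had log2 fold changes of 0.33 (SE 0.20) and 0.43 (SE 0.25), with limma adjusted p of 0.238 and 0.222. The alpha-class members had log2 fold changes of 0.14 to 0.94, with SE of up to 1.26 and limma adjusted p of 0.609 to 0.794. The median log2 fold change of the 10 members was 0.35.

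**Figure D3:**
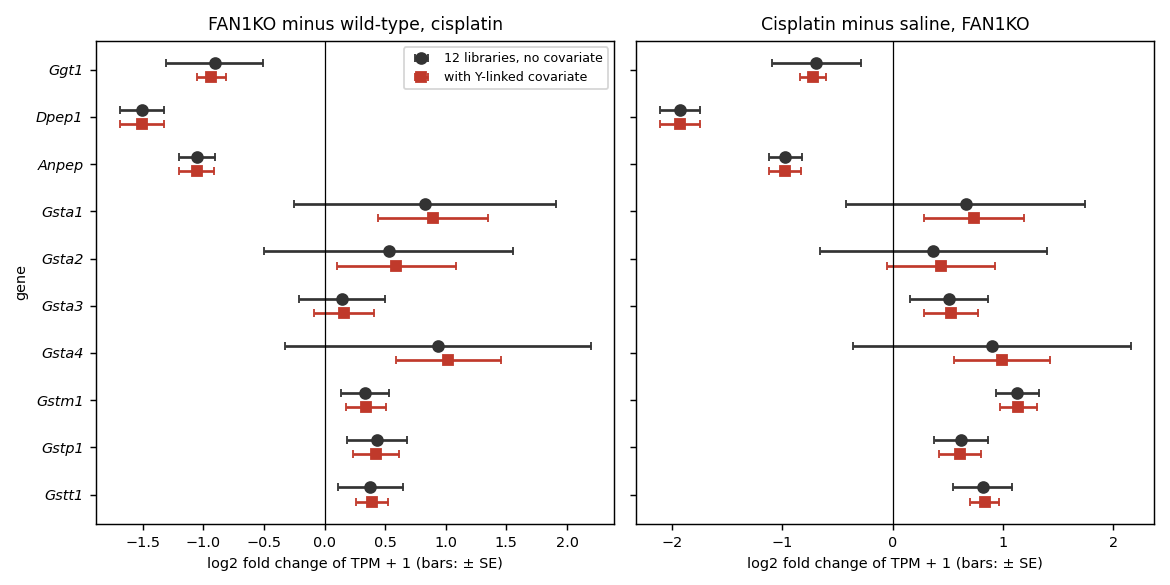
Log2 fold changes of TPM + 1 for the 10 genes between the genotypes under cisplatin (FAN1KO over wild-type, left) and in cisplatin against saline FAN1KO kidneys (right), with bars of ± SE, without a covariate (circles) and with the Y-linked covariate (squares). The Ggt1 estimate barely moves with the covariate, from −0.91 to −0.93 on the left, while its SE falls from 0.40 to 0.12, and the bars of Dpep1 and Anpep stay clear of 0 in both panels.

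Without cisplatin, the genotypes were compared in saline kidneys. By limma 0 of 10 members were called, where 0.768% of all genes tested were, and 1 of 10 had an unadjusted p under 0.05. That gene was Gstm1, at 504, 476 and 397 TPM in wild-type and 252, 372 and 265 in FAN1KO saline kidneys. The groups did not overlap, with 459 ± 55.3 against 297 ± 66.0 (SD, n = 3), and the log2 fold change was −0.64 (SE 0.20, limma adjusted p = 0.282). Gstm1 was the only one of the 10 without overlap, where 12.5% of all genes tested had none. Dpep1 was at 128, 104.5 and 85.1 TPM against 129, 94.4 and 126, and Anpep at 93.4, 95.0 and 77.3 against 98.7, 66.3 and 79.0 in wild-type and FAN1KO kidneys. The groups overlapped for both genes. Ggt1, whose promoter drives the Cre of the FAN1KO mice, was 1037 ± 365 and 888 ± 354 TPM (SD, n = 3), with a log2 fold change of −0.24 (SE 0.40), and the 9 members other than Gstm1 had limma adjusted p of 0.91 to 1.

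Cisplatin was then compared with saline within each genotype. In FAN1KO mice this comparison uses the same cisplatin libraries as the one with wild-type kidneys above, so the values of both stand side by side and are not independent. In FAN1KO kidneys, Dpep1 fell from 117 ± 19.2 to 29.9 ± 4.83 TPM and Anpep from 81.4 ± 16.3 to 40.5 ± 3.25 (SD, n = 3), with log2 fold changes of −1.93 (SE 0.18) and −0.97 (SE 0.15) and limma adjusted p of 0.000103 and 0.000915. Neither gene overlapped between its 2 groups. Gstm1 rose from 297 ± 66.0 to 641 ± 31.3 TPM, with 605, 662 and 656 TPM after cisplatin, a log2 fold change of 1.13 (SE 0.20, limma adjusted p = 0.00179) that was 0.69 after scaling (limma adjusted p = 0.0129). Gstt1 rose from 221 ± 77.5 to 375 ± 43.8 TPM, with 136, 288 and 240.4 TPM in saline kidneys, a log2 fold change of 0.82 (SE 0.27, limma adjusted p = 0.0338). The Gstt1 call was lost after scaling, at 0.38 (limma adjusted p = 0.122), and without any of FAN1KO saline replicate 1 or FAN1KO cisplatin replicates 1 and 2, at limma adjusted p of 0.115, 0.0938 and 0.102. Thus 2 members were lower and 2 higher, where 4.9% of all genes tested were called lower and 34.9% higher, or 39.8% in either direction, and 4 of 10 had groups that did not overlap, where 54.9% of genes did.

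In the same kidneys Ggt1 did not pass the test, at −0.69 (SE 0.40, limma adjusted p = 0.19), and was at −0.72 with the Y-linked covariate (limma adjusted p = 0.000482), a fit that called 61.1% of all genes tested. Gstp1, at 329, 207 and 167 TPM in saline and 299, 325 and 427 in cisplatin kidneys, had a log2 fold change of 0.62 (SE 0.25, limma adjusted p = 0.0675), 0.18 after scaling. Without FAN1KO saline replicate 1, its only high saline library and the one with Y-linked RNA, the adjusted p in limma was 0.0134. Gstp1 also passed with the Y-linked covariate and in the 8 libraries without Y-linked RNA (limma adjusted p = 0.0184 and 0.0185). Those fits called 61.1% and 52.8% of all genes tested. After scaling Gstp1 did not pass, without or with the covariate (limma adjusted p = 0.73 and 0.529). The alpha-class members had log2 fold changes of 0.37 to 0.90 and limma adjusted p of 0.267 to 0.797, and Gsta2 was at −0.44 in the 8 libraries without Y-linked RNA (limma adjusted p = 0.0435). The median of all genes tested was 0.37 here, and scaling moved it to −0.01.

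In wild-type kidneys, cisplatin gave 0 calls among the 10 members by limma, where 0.0601% of all genes tested were called, and 1 member with an unadjusted p under 0.05. This was Gsta3, an alpha-class enzyme that also acts on steroid substrates, at 144, 131 and 72.3 TPM in saline and 126, 268 and 237 in cisplatin kidneys. Its groups overlapped, as the cisplatin library with Y-linked RNA, at 126 TPM, lay below the saline libraries at 144 and 131. The log2 fold change was 0.85 (SE 0.35, limma adjusted p = 1). No member had groups without overlap, where 6.28% of all genes tested had. Dpep1 was 106 ± 21.4 TPM after saline and 86.3 ± 9.72 after cisplatin, and Anpep 88.6 ± 9.77 and 85.1 ± 7.75 (SD, n = 3).

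Whether the cisplatin difference itself differed between the genotypes was tested by the interaction term, the FAN1KO log2 change minus the wild-type one. It was −1.65 for Dpep1 (SE 0.26, limma adjusted p = 0.0111) and −0.92 for Anpep (SE 0.21, limma adjusted p = 0.0328), so 2 of 10 members were called lower and 0 higher, where 6.24% of all genes tested were called in either direction and 1.02% lower. The Anpep call was lost without any 1 of 9 of the 12 libraries, all except wild-type cisplatin 2, FAN1KO cisplatin 3 and FAN1KO saline 2, with limma adjusted p of 0.0561 to 0.0893, and after scaling, at −1.25 (limma adjusted p = 0.0559). The interaction of Gstm1 was 0.98 (SE 0.28, limma adjusted p = 0.0624), and it passed without FAN1KO saline replicate 2 or wild-type cisplatin replicate 2 (limma adjusted p = 0.0446 and 0.0358). That of Ggt1 was −0.67 (SE 0.57, limma adjusted p = 0.498), and with the Y-linked covariate its adjusted p in limma was 0.0136. The covariate fit called 31.6% of all genes tested, Gstm1 and Gstt1 among them (limma adjusted p = 0.0122 and 0.0353). In the 8 libraries without Y-linked RNA, Ggt1, Gstm1 and Gstt1 did not pass (limma adjusted p = 0.0658, 0.0991 and 0.109).

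The wider pathway was read from lists of its genes, with calls from the comparison of genotypes under cisplatin. Beside every list count of that comparison stand the shares of all genes tested, 4.37% lower and 19.6% higher, or 7.71% and 9.28% after scaling. For list counts between saline kidneys the share called was 0.768% in either direction. For the interaction it was 6.24%, with 1.02% lower. Counts near those shares say nothing particular about a list. Some genes of the steps that follow cleavage were lower in FAN1KO than in wild-type kidneys. Of 14 tested genes for mercapturate formation and beta-lyases, 6 were lower and 0 higher, before and after scaling, and their median log2 fold change was −0.996. Nat8f7, of the family of cysteine conjugate N-acetyltransferases, was at 219.8 ± 61.9 TPM in the wild type and 34.3 ± 26.0 in FAN1KO (SD, n = 3), a log2 fold change of −2.91 (SE 0.53, limma adjusted p = 0.0043). Acy1, the aminoacylase that removes the acetyl group again, was at 567 ± 214 and 145 ± 16.9 TPM, at −1.90 (SE 0.37, limma adjusted p = 0.00605), and Nat8f3 and Nat8f6 were at −2.43 and −1.92. Acy1 already stood at 761 ± 221 TPM in wild-type and 293 ± 144 in FAN1KO saline kidneys (SD, n = 3). Saline means of Nat8f7 were 256 and 155 TPM, of Nat8f3 101 and 71.3, and of Nat8f6 127 and 186. Limma called 0 genes of this list in saline kidneys and 1, lower, in the interaction.

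Other brush border peptidases gave 2 lower of 10 tested, Mep1b, a meprin subunit, at −1.34 and Ace, the angiotensin-converting enzyme, at −1.26 (limma adjusted p = 0.0201 and 0.0203). Their saline levels in wild-type and FAN1KO kidneys were 119 ± 27.0 and 74.2 ± 29.5 TPM for Mep1b and 117 ± 11.1 and 75.3 ± 30.0 for Ace (SD, n = 3). Limma called 0 of the 10 in saline kidneys and 0 in the interaction, where 0.768% and 6.24% of all genes tested were called. Among 6 tested relatives of Ggt1 and Dpep1, 1 was higher, Ggt7, at a low level of 1.26 ± 0.57 and 2.93 ± 0.52 TPM (SD, n = 3). Of 16 other transferases tested, 1 was lower and 2 were higher, and after scaling 3 were lower and 2 higher. Gstz1, which isomerizes maleylacetoacetate in tyrosine breakdown, went from 289 ± 48.1 to 167 ± 20.5 TPM, at −0.78 (SE 0.14, limma adjusted p = 0.00385), while Gstp3 and Gstm6 were at 1.67 and 1.61 (limma adjusted p = 0.00395 and 0.0333) from levels of 1.43 and 4.16 TPM in wild-type kidneys.

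Of 9 tested genes of glutathione synthesis and turnover, 2 were lower and 2 higher, and after scaling 2 were lower and 0 higher. Chac2, which breaks glutathione down inside the cell, was at −0.98 (SE 0.10, limma adjusted p = 0.000352) and Cth, which makes cysteine from cystathionine, at −0.89 (limma adjusted p = 0.00944), while Chac1, its stress-induced relative, was at 1.12 and Oplah, the oxoprolinase, at 0.58. The redox list had 0 lower and 2 higher of 11 tested: G6pdx, which feeds NADPH to glutathione reductase, at 0.84 (limma adjusted p = 0.00345) and Gpx6, a glutathione peroxidase, at 1.74 (limma adjusted p = 0.0442). After scaling 1 was lower and 1 higher, and Gpx6 had a limma adjusted p of 0.0708. Gpx6 was also the 1 redox gene called between saline kidneys, at 35.5 ± 28.6 TPM in FAN1KO and 1.45 ± 1.30 in the wild type (SD, n = 3), and in FAN1KO kidneys it was lower after cisplatin, at 6.95 ± 4.59 TPM. Among export genes, the conjugate pump Abcc2 was higher, at 0.85 (limma adjusted p = 0.0171), and was at 0.57 with a limma adjusted p of 0.0581 after scaling. Abcc2 already stood at 28.4 ± 1.58 TPM in wild-type and 54.9 ± 8.93 in FAN1KO saline kidneys (SD, n = 3). Limma called 0 export genes between saline kidneys, but 1 was higher there after scaling and 1 with the Y-linked covariate. Those fits called 0.534% and 1.16% of all genes tested higher. The interaction had 0 calls in this list. Among 7 tested targets of NRF2, the factor that drives many detoxification genes, 1 was higher, where 19.6% of all genes tested were. It was Nqo1 at 0.95 (limma adjusted p = 0.0229), with 0.67 and an adjusted p in limma of 0.149 after scaling.

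The falls of Dpep1 and Anpep stood beside those of the proximal tubule as a whole. Of its 12 markers, 9 were lower and 0 higher in the same comparison, with a median log2 fold change of −1.22. After scaling 7 of the 12 were lower. None of the 12 was called in saline kidneys, where only 0.768% of all genes tested were. All 6 tubule injury markers were higher, 5 of them after scaling, and their summed TPM was 90.6 to 299.9 in wild-type and 1314 to 1607 in FAN1KO cisplatin kidneys. Immune markers summed to 20.2 to 81.7 and 94.0 to 285 TPM, with 1 of 7 higher and 0 after scaling, where 19.6% and 9.28% of all genes tested were. The part that these shifts had in the values of the members was not tested. The distal tubule and collecting duct list had 2 lower and 2 higher of 10, and 2 lower and 0 higher after scaling. Of 9 podocyte and endothelial markers limma called 0, but their median log2 fold change was −0.95. With the Y-linked covariate 5 of 9 were lower, where that fit called 8.6% of all genes tested lower. Of 6 stromal markers limma called 0, with a median of −0.17.

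The genes whose profile over the 12 libraries lay nearest to that of Ggt1 were sought among 14971 tested genes, by the root mean square difference of log2(TPM + 1) after centring each gene on its own mean. The nearest were Cyb5a (cytochrome b5) at 0.152, Galnt14 at 0.176, Csad (a taurine synthesis enzyme) at 0.179, Slc22a2 (the organic cation transporter OCT2) at 0.188 and Grhpr (glyoxylate reductase) at 0.196 log2 units. Each stood higher in the library with Y-linked RNA than in the others of its group, as Ggt1 did. That likeness follows from picking them by nearness to Ggt1 over these libraries and is no separate result. Of the other 9 members, the nearest was Anpep at 0.456, the gene of rank 546, followed by Dpep1 at 0.666 and Gstp1 at 0.747, and Gsta1 and Gsta4 were among the farthest of all genes, at 1.82 and 2.05 and ranks 14848 and 14900.

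**Figure D4:**
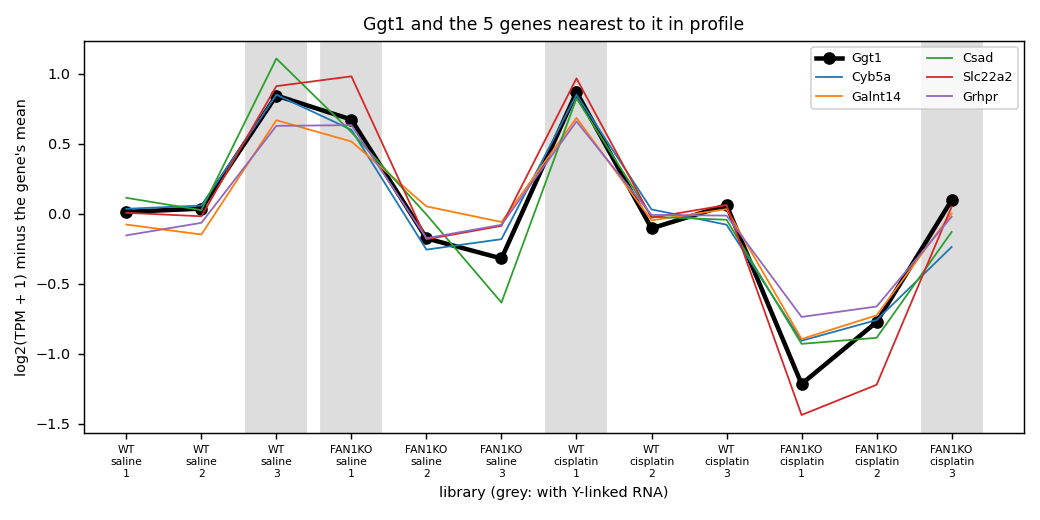
Lines give log2(TPM + 1) minus the gene's own mean for Ggt1 (thick, black) and the 5 genes nearest to it, over the 12 libraries in label order, with grey bands on the 4 libraries with Y-linked RNA. In each group the grey library stands above the other 2 for every gene drawn, and FAN1KO cisplatin 1 and 2 are the lowest libraries for every gene. The 5 genes were picked for a profile like that of Ggt1, so this likeness is built in.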

How the data were processed

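Kidney RNA of 12 mice, 3 per group, was sequenced in paired reads. The values deposited by the authors are TPM of 27179 genes, listed by NCBI Gene number in 1 table, each library summing to 1000000 TPM. The submitters' processing notes name mm10 and limma, and the aligner and counter are not given in the sources used here. Symbols came from the RefSeq table of GRCm38.p6, which names 25275 of the gene numbers. All columns of values were used.

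Genes with at least 1 TPM in at least 3 libraries (14972) were tested as log2(TPM + 1), so fold changes of low genes are understated. The 12 libraries were fitted with a mean per group in limma 3.58.1 (R 4.3.3), with empirical Bayes moderation, a mean-variance trend, Benjamini-Hochberg adjustment over all genes tested and a threshold of 0.05. This step was checked on simulated data. The depth was read from the steps of small RNA genes, of which 253 of 400 gave the common value. No TPM was turned into reads for a test, since only relative depth was needed.

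Alternatives were a pseudocount of 0.1, no filter, only the libraries compared, mitochondrially encoded genes left out, scaling by median-ratio size factors, a Y-linked covariate (the mean log2 value of the genes named in the report), no trend, a replicate block and each library left out. The fit of the 8 libraries without Y-linked RNA and scaling with the Y-linked covariate were chosen after seeing the data. Named were the 10 members, up to 4 called genes with the largest change per list, and the 5 genes nearest to Ggt1. An item of the export list is not reported here. Members and lists were chosen with earlier results of these data known. Each library is labelled as a separate sample, and p-values measure the spread between the mice. Python 3.11.15, pandas 2.3.3, scipy 1.17.1 and matplotlib 3.10.9 were also used.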

Additional observations from a re-analysis of the deposited data

Results flagged for a closer look

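For 2 of the 10 genes the cisplatin response differed between the genotypes by the interaction term. Of all genes tested, 6.24% were called by that term in either direction and 1.02% lower. For Dpep1 the FAN1KO log2 change minus the wild-type one was −1.65, with 3 of 3 FAN1KO kidneys after cisplatin below all 9 other kidneys. For Anpep it was −0.92, with 3 of 3 FAN1KO kidneys after cisplatin below all 9 others. The share of all genes tested with that order of kidneys was not counted. The Anpep call was lost in 9 of the 12 fits that leave out a library, after median-ratio scaling, with the replicate block and in the 8 libraries without Y-linked RNA, with limma adjusted p of 0.0559, 0.0572 and 0.0565 in the last 3. The summed proximal tubule markers were also lowest in these kidneys, and their part in the result was not tested.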

How the results depend on the processing

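Each of the 50 log2 fold changes of the members was recomputed under 22 settings, or 21 for the interaction; of 1090 values, 990 kept their direction and side of the threshold, 17 passed it, 18 no longer passed it and 65 changed sign. Dpep1 and Anpep stayed called and lower in FAN1KO cisplatin kidneys, against wild-type and against saline, under every setting run. The causes of the shifts below were not tested.

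The Y-linked covariate gave 4 members called between genotypes under cisplatin, in place of 2 (48.9% of all genes tested), 6 in cisplatin against saline FAN1KO kidneys, in place of 4 (61.1%), and 5 in the interaction, in place of 2 (31.6%). The 8 libraries without Y-linked RNA gave 7 in cisplatin against saline FAN1KO kidneys, in place of 4 (52.8% of all genes tested), and 1 in the interaction (16.3%). Median-ratio scaling also gave 1 in the interaction (3.73%). The labels do not say that replicate numbers pair mice. Deviations of same-numbered libraries had mean correlations of −0.24 to −0.14, against 0.081 to 0.14 for different numbers. In each of these comparisons the libraries with Y-linked RNA have different numbers, so the correlations cannot tell whether mice were paired. With the replicate block, 1 member was called in the interaction, Dpep1, where 2.83% of all genes tested were, and Anpep had a limma adjusted p of 0.0572. The block changed no other member's call. Leaving out each library gave 2 to 3 members called between genotypes under cisplatin, 3 to 4 in cisplatin against saline FAN1KO kidneys, 1 to 3 in the interaction and 0 in the other comparisons. The share of all genes tested was not counted for those fits. The only-compared-libraries fit took Gstt1 in FAN1KO kidneys to a limma adjusted p of 0.0549, and leaving out mitochondrially encoded genes to 0.0827. With only the libraries compared, no interaction can be fitted.

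Signs changed for members that were not called, except that Gsta2 was called in 1 of these fits. Between genotypes under cisplatin, Gsta2 was −0.19 and Gsta3 −0.27 in the 8 libraries, and Gsta3 was −0.14 after scaling and −0.13 after scaling with the covariate. In saline, Dpep1 was −0.081 in the 8 libraries. In cisplatin against saline FAN1KO kidneys, Gsta1 was −0.12 and Gsta2 −0.44 in the 8 libraries, and Gsta2 was −0.068 after scaling and −0.0074 with scaling and covariate; in wild-type kidneys Gsta2 was −0.10 in the 8 libraries and −0.0081 after scaling. In the interaction, Gsta1, Gsta2 and Gsta4 were −0.29, −0.34 and −0.24 in the 8 libraries, Gsta2 was −0.060 and −0.050 and Gstp1 −0.13 and −0.13 after scaling without and with the covariate.

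With each library left out in turn, the signs of these members also changed, over these ranges. Between genotypes under cisplatin Gsta1 ran from −0.13 to 1.41, Gsta2 −0.33 to 1.07, Gsta3 −0.19 to 0.35 and Gsta4 −0.36 to 1.78. Between genotypes under saline, Ggt1 ran from −0.55 to 0.034, Dpep1 −0.0021 to 0.29, Anpep −0.28 to 0.0021, Gsta1 −0.62 to 1.42, Gsta2 −0.81 to 1.19, Gsta4 −0.66 to 1.44, Gstp1 −0.054 to 0.43 and Gstt1 −0.43 to 0.11. In cisplatin against saline FAN1KO kidneys, Gsta1 ran from −0.37 to 1.22, Gsta2 −0.58 to 0.87 and Gsta4 −0.13 to 1.52. In cisplatin against saline wild-type kidneys, Ggt1 ran from −0.32 to 0.25, Anpep −0.15 to 0.022, Gsta1 −0.79 to 1.18, Gsta2 −0.96 to 0.95, Gsta4 −0.69 to 1.67 and Gstm1 −0.053 to 0.30. In the interaction, Gsta1 ran from −0.60 to 1.45, Gsta2 −0.66 to 1.33, Gsta4 −0.77 to 1.60 and Gstp1 −0.0013 to 0.49.

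With 3 mice a group and 1 library with Y-linked RNA in each, the gap that goes with Y-linked RNA has no replicate within a group. TPM are shares of a library, so a rise in many genes lowers the others. Depth did not limit the members.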
